A study of Mus musculus with 5 samples.

Results

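H3K4me1 regions that carried no peak of Hoxa9 or C/EBPα were examined in transformed mouse bone marrow progenitors. The regions were chosen by their measured overlap and width: each was under 5000 bp and shared 0 bp with any Hoxa9, C/EBPα or H3K27me3 peak. By this rule 71702 of 100189 H3K4me1 regions were kept, a share of 71.6%. They made up 72.9% (95% exact interval 72.6 to 73.1) of the 98418 regions under 5000 bp. They are called factor-free regions below, which means only that no Hoxa9 or C/EBPα peak was listed there.

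The cells were lineage-depleted marrow of C57B6 mice that carried the retroviral constructs MIGR1-HA-Hoxa9 and MIGR1-Flag-Meis1 and were kept in IL3. Every library came from such doubly transduced cells, so no untransformed control enters any value. Hoxa9 was precipitated through the HA tag of the transduced protein, C/EBPα with an antibody against C/EBPα, and each histone mark with its own antibody. Each of the 4 lists came from 1 library, so no value has a replicate error and no test between conditions was possible. Peak lists hold no expression values, so the cell type could not be checked against markers.

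Monomethylation of lysine 4 of histone H3 is laid down mainly by methyltransferases of the MLL family and is found at enhancers and at the flanks of promoters. It can precede activity, and enhancers that are primed but silent carry it as well as active ones. Hoxa9 is a homeodomain protein that acts with Meis1 in leukemic transformation, whereas C/EBPα binds DNA through a basic leucine zipper and directs granulocyte and monocyte development. H3K27me3 is the mark of Polycomb repression.

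Factor-free regions were compared with 19891 factor-bound regions, which had the same width limit, no H3K27me3 and at least 1 bp of a Hoxa9 or C/EBPα peak. Of these, 14431 touched C/EBPα alone, 1827 Hoxa9 alone and 3633 both factors. The other 6825 regions under 5000 bp touched H3K27me3, 6228 of them with neither factor and 597 with a factor, and 1771 regions were of 5000 bp or more. Factor-free regions covered 65.8 Mb, which was 55.1% of all H3K4me1 length, and held 49.1% of the tags in the list. Factor-bound regions covered 33.9 Mb, or 28.4% of the length, and held 30.8% of the tags.

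Factor-free regions were narrow. Their median width was 661 bp, with quartiles at 461 and 1096 bp and a range from 164 to 4999 bp. Medians of the 20 chromosomes averaged 653 bp ± 39.4 (SD). Of factor-free regions, 32.9% were under 500 bp and 38.4% were between 500 and 1000 bp, while 7.49% reached 2000 bp. Factor-bound regions had a median width of 1424 bp, 10.7% were under 500 bp and 33.0% reached 2000 bp. The quartiles of the classes overlapped, at 798 and 2349 bp in factor-bound regions. Width entered the rule as a limit, and a wide region has more room to meet a peak, so this difference is a description.

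The share of regions without a factor was lower in wider regions. Among regions of 250 to 500 bp without H3K27me3, 91.7% (91.4 to 92.1) were factor-free. The share was 75.7% (74.7 to 76.6) at 1000 to 1250 bp, 55.2% (53.3 to 57.1) at 2000 to 2250 bp and 24.1% (19.1 to 29.6) at 4750 to 5000 bp. Summits per length, which do not gain from room alone, followed another course. Regions of 250 to 500 bp held 0.0881 Hoxa9 and C/EBPα summits per kb, those of 1000 to 1250 bp held 0.171 and those of 2000 to 2250 bp held 0.227. From there to 5000 bp the density lay between 0.216 and 0.252 summits per kb. Summit density thus rose up to about 2000 bp of width and was nearly level above it, while the share without a factor was lower still at 4750 to 5000 bp than at 2000 to 2250 bp.

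**Figure D1:**
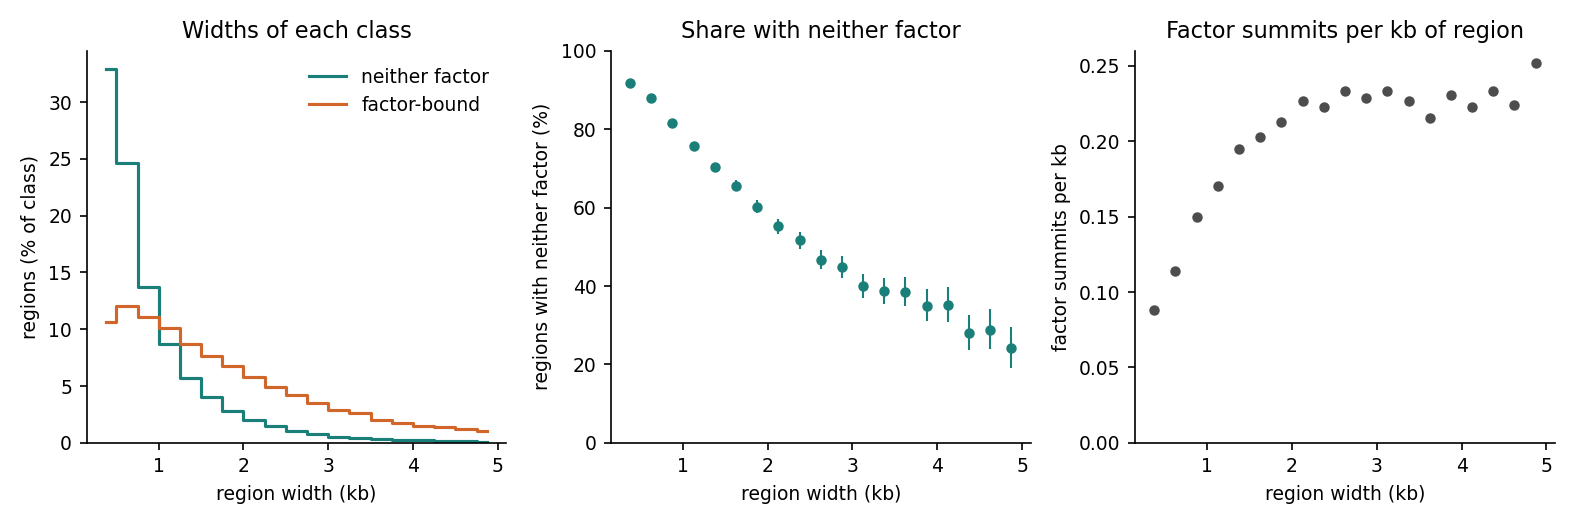
Widths and factors in H3K4me1 regions without H3K27me3, by width in bins of 250 bp (x axis, kb). Left, the percent of each class per bin for factor-free (green) and factor-bound regions (orange); middle, the percent of regions with neither factor, with exact 95% intervals, falling from 91.7% to 24.1%; right, factor summits per kb of region, level from about 2000 bp.

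H3K4me1 itself was weaker over all factor-free regions than over factor-bound ones, and most of that difference went with width. Tags per bp is the number of sequenced tags in a region divided by its width. Factor-free regions had a median of 0.0386 tags per bp (quartiles 0.0341 and 0.0458) and factor-bound regions 0.0495, a ratio of 1.28. The fold enrichment given by the authors' peak caller had medians of 4.54 and 6.10. The score, which is the caller's p-value written as 10 times −log10, had medians of 145 and 499. Both classes held more tags per bp in wider regions. Among factor-free regions the median rose from 0.0335 tags per bp at 250 to 500 bp to 0.0542 at 2000 to 2250 bp and 0.0619 at 4750 to 5000 bp.

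At equal width the classes were close. Medians were taken in bins of 250 bp and averaged with the weights of the factor-free regions, over 19 bins with at least 20 regions of each class. Factor-bound regions then had 0.0413 tags per bp and factor-free regions 0.0404, so the factor-bound value was 2.16% higher. The ratio was above 1 on 20 of 20 chromosomes, with a mean of 1.02 ± 0.00794 (SD) and a range from 1.01 to 1.04. Factor-bound medians were higher in 16 bins and lower in 3. The bin with most factor-free regions, 23577 of 250 to 500 bp, was among the latter, at 0.03349 against 0.03354 tags per bp. The ratio was 1.029 with bins of 500 bp and 1.019 with bins of 100 bp, so it was smaller with narrower bins. In all 19 bins the factor-bound median lay below the upper quartile of the factor-free regions. A factor-free region with the median count of 26 tags has an exact Poisson interval of 17.0 to 38.1 tags, so the difference shows only in medians over many regions.

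Fold enrichment kept a somewhat larger gap at equal width. It averaged 5.04 in factor-bound and 4.75 in factor-free regions, 6.16% higher with a factor. The ratio was above 1 on 19 of 20 chromosomes (1.06 ± 0.0223, SD) and in 19 of 19 bins. Without the width bins the ratio was 1.34. The score was 8.22% higher at equal width, against a ratio of 3.45 over all widths.

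**Figure D2:**
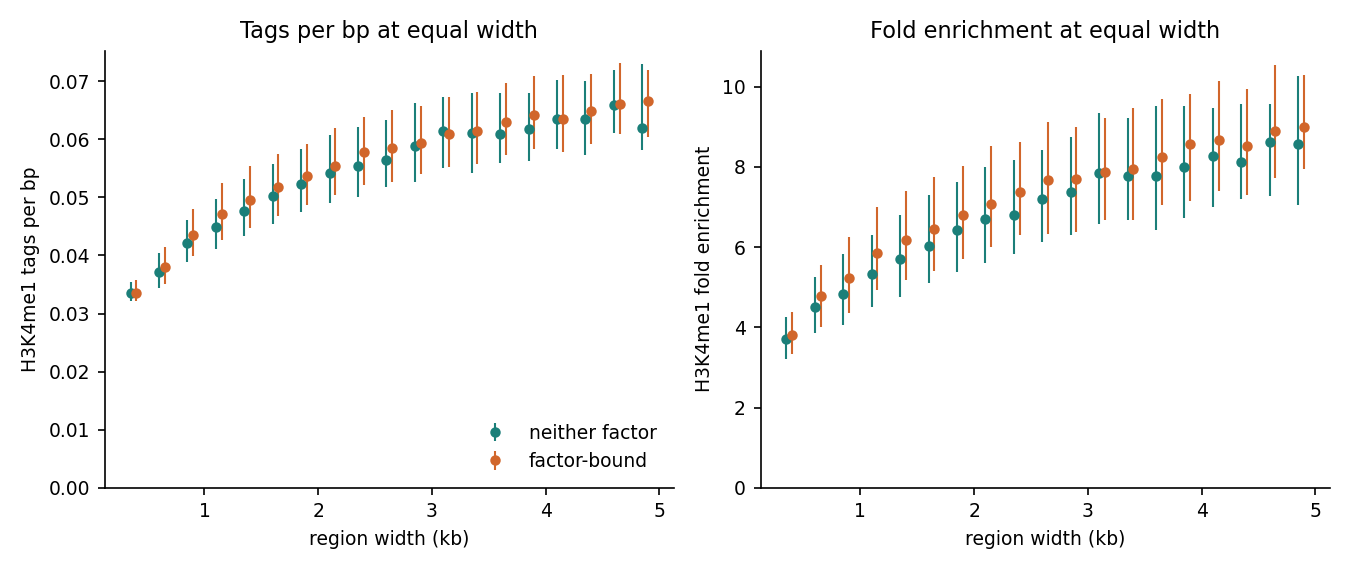
H3K4me1 tags per bp (left) and fold enrichment (right) against region width in bins of 250 bp; points are medians and bars run from the lower to the upper quartile over regions of 1 library. Factor-free (green) and factor-bound regions (orange) rise together with width, and in every bin shown the factor-bound median lies below the factor-free upper quartile.

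Which factor was present made little difference to the comparison of tags. Regions touched by C/EBPα alone were 2.09% above factor-free regions of equal width in tags per bp, those touched by Hoxa9 alone 2.05% and those touched by both 3.07%. In fold enrichment the excess was 5.01% for C/EBPα alone, 9.91% for Hoxa9 alone and 10.7% for both. Regions with Hoxa9 alone were too few for most chromosomes: only 2 had a bin with 20 of them. There their tags per bp lay below those of factor-free regions, at 0.988 and 0.993 times, but their fold enrichment lay above, at 1.114 and 1.141 times. Regions with both factors could be compared on 10 chromosomes, with tags per bp at 1.016 to 1.153 times, above 1 on all 10. C/EBPα alone had a mean of 1.02 over 20 chromosomes. The place of the H3K4me1 summit did not separate the classes either. At equal width it lay a median of 13.7% of the region's width away from the centre in both.

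Many strong H3K4me1 regions had no factor peak. With regions under 5000 bp and without H3K27me3 divided into 5 groups by score, 92.7% (92.4 to 93.1) of the weakest group were factor-free. The shares of the next groups were 90.0%, 84.9% and 73.7%. In the strongest group, with scores from 565.77 and a median width of 2258 bp, 9170 of 18319 regions were factor-free, a share of 50.1% (49.3 to 50.8). At the other end, 14.0% of factor-free regions held the fewest tags in the list, 14, against 4.41% of factor-bound regions. A fold enrichment of 10 or more was reached by 1020 factor-free regions, or 1.42%, and by 7.02% of factor-bound regions.

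The 10 factor-free regions with the highest scores lay on 10 different chromosomes, were 3192 to 4877 bp wide and held 0.0728 to 0.0873 tags per bp. The top score, 3233.06, was on chromosome 1 from 195161617 to 195165949 (mm9), a region of 4333 bp enriched 11.65-fold, whose nearest factor summit, of C/EBPα, was 25502 bp away. The second, on chromosome 13 from 51511141 to 51515611, had the highest fold enrichment of the 10, 18.29, and a C/EBPα summit at 3908 bp. The fourth, on chromosome 2 from 93030808 to 93035635, had the most distant nearest factor summit of the 10, one of C/EBPα at 144256 bp. Of these 10, 2 had a factor-bound H3K4me1 region within 2500 bp. Ranks near a score of 3100 are uncertain, because 48 factor-free regions shared exactly that score and 21 lay above it. Nor did the score order regions as tags or fold enrichment did. A region on chromosome 8 from 72800197 to 72803851 scored 3100 with 332 tags in 3655 bp, enriched 20.31-fold. The top-scoring region held 327 tags in 4333 bp. The 10 highest scores are thus not the strongest regions by every measure.

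The 5 factor-free regions with the highest fold enrichment had values from 20.27 to 24.27 and were 2195 to 3655 bp wide. The first was on chromosome 15 from 36680880 to 36683402, with 0.119 tags per bp, a C/EBPα summit 2912 bp away and a factor-bound region 1643 bp away. The next were on chromosome 11 from 116230163 to 116232357 (fold enrichment 22.22, C/EBPα summit at 7606 bp) and from 51751210 to 51753864 (21.84, summit at 5764 bp). The fourth lay on chromosome 8 from 72800197 to 72803851, and its nearest factor summit was 35980 bp away. The fifth, on chromosome 5 from 119023035 to 119025778, had its nearest one at 40033 bp. High enrichment was thus found both a few kilobases from a factor summit and far from any.

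The 5 widest were 4976 to 4999 bp and lay just inside the limit. The widest, on chromosome 11 from 106475181 to 106480179, had a C/EBPα summit 555 bp from its edge, and the second, on chromosome 10 from 79614829 to 79619820, one at 321 bp. The third, at 93578138 to 93583120 of chromosome 5, had no factor summit within 13827 bp. Those at 104578025 to 104583003 of chromosome 12 and at 117166698 to 117171673 of chromosome 11 had one at 2216 and 15795 bp. Of the 5, 3 had a factor-bound region within 2500 bp. At the limit itself, the 26 factor-free regions at most 100 bp under it had a median of 0.0609 tags per bp, and the 28 regions less than 100 bp over it that met the rest of the rule had 0.0639. At the other limit of the rule, 560 factor-free regions had a factor peak at most 50 bp from their edge, with a median width of 642.5 bp and 0.0392 tags per bp. The 566 factor-bound regions that shared at most 50 bp with a peak had 750 bp and 0.0402.

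Factor summits were rarely at the edge of a factor-free region and mostly within 50000 bp. The median distance from the region's edge to the nearest summit of either factor was 8323 bp, with quartiles at 3028 and 21014 bp. It was 27659 bp when factor peaks had to be enriched at least 10-fold. Chromosome medians averaged 8318 bp ± 607 (SD, 20 chromosomes), from 7303 bp on chromosome 14 to 9545 bp on chromosome 4. A summit lay within 500 bp of 2.29% of factor-free regions, within 2500 bp of 21.1%, within 10000 bp of 55.1% and within 50000 bp of 91.8%. Factor-bound regions had a summit outside them within 10000 bp in 66.6% and within 50119 bp in 94.1%, though it could belong to the peak that touches them. A summit within about 50000 bp was thus not particular to factor-free regions. Beyond 100000 bp there were 1579 regions, or 2.20%. The rule keeps out summits whose peak reaches the region, which sets the low end of these distances.

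C/EBPα was usually the nearer factor. Its nearest summit lay at a median of 9254 bp from factor-free regions and that of Hoxa9 at 54464 bp. The C/EBPα summit was the nearer in 84.7% (84.5 to 85.0) and the Hoxa9 summit in 15.2%. The C/EBPα list is the longer one, with 26446 peaks against 6578, and supplied 80.1% of all factor summits. Within 2500 bp, 19.4% of factor-free regions had a C/EBPα summit and 4.78% a Hoxa9 summit.

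**Figure D3:**
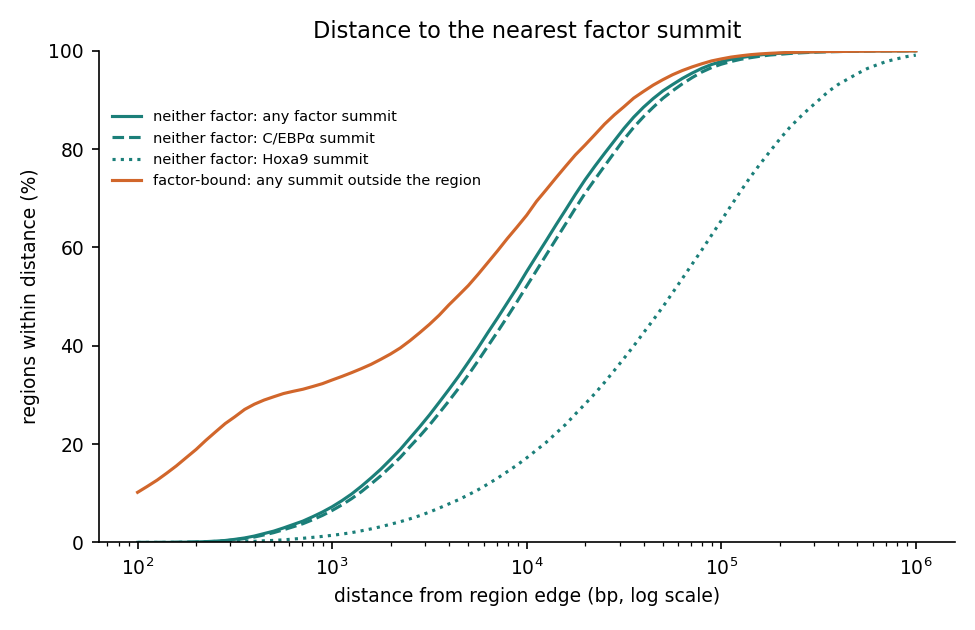
Cumulative percent of regions (y axis) whose edge lies within a given distance of a factor summit (x axis, bp, log scale). Green lines are factor-free regions to any factor summit (solid), C/EBPα (dashed) and Hoxa9 (dotted), with medians of 8323, 9254 and 54464 bp; the orange line is factor-bound regions to the nearest summit outside them, which can belong to the very peak that touches the region and so is not comparable at short distance.

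A factor peak close by but outside the region was found for a small group. A peak edge lay within 500 bp of 4114 factor-free regions, 5.74% of them. In 1226 of these, or 29.8%, that peak touched no H3K4me1 region at all, so it lay outside the listed H3K4me1 regions. Of all 33024 factor peaks, 24.7% touched no H3K4me1 region. In the other 2888 it touched a different H3K4me1 region. Within 100 bp there were 1042 regions with a median width of 690.5 bp and 0.0397 tags per bp, near the values of the whole class.

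The mark on factor-free regions changed little with distance to a factor. Those within 500 bp of a summit had a median of 0.0386 tags per bp, a width of 661 bp and a fold enrichment of 4.69. At 5000 to 10000 bp the medians were 0.0389 tags per bp, 688 bp and 4.55, and at 50000 to 100000 bp they were 0.0379, 620 bp and 4.54. Beyond 100000 bp regions were narrower, with a median of 553 bp, and held 0.0365 tags per bp, while fold enrichment was 4.55. The medians of all distance groups lay within the quartiles of the whole class. The 5 farthest lay 839740 to 1664333 bp from any factor summit and had no other H3K4me1 region within 2500 bp. They were 448 to 889 bp wide, with 0.0302 to 0.0439 tags per bp and fold enrichments from 3.53 to 6.67. The farthest of all was on chromosome 10 from 47173314 to 47173857, where 21 tags gave a score of 125.37. The next, from 48871435 to 48871882 on the same chromosome, held 14 tags.

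**Figure D4:**
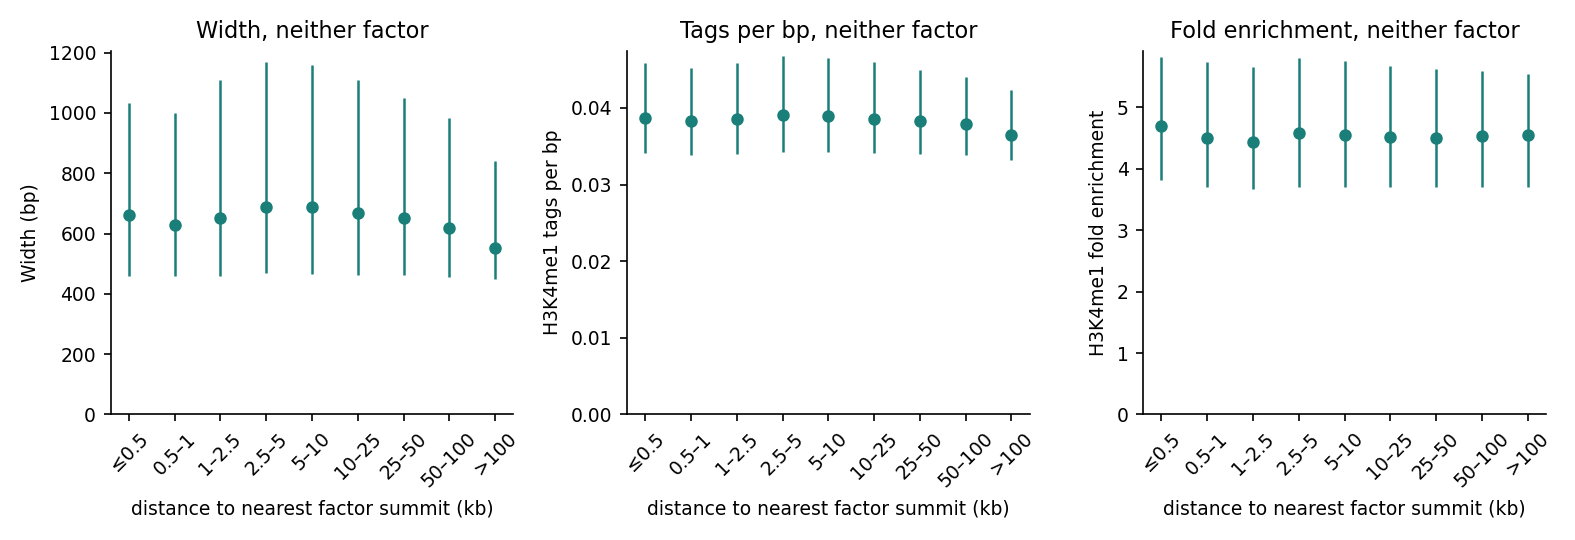
Factor-free regions by distance to the nearest factor summit (x axis, kb): width (left, bp), H3K4me1 tags per bp (middle) and fold enrichment (right), as medians with bars from the lower to the upper quartile. Medians stay level to 50 kb, and width falls to 553 bp beyond 100 kb.

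Neighbouring H3K4me1 regions were common. A gap of 2500 bp or less separated 17903 factor-free regions, 24.97% (24.65 to 25.29), from an H3K4me1 region touched by Hoxa9 or C/EBPα. Such neighbours, called factor-bound as well, could be of any width and could touch H3K27me3. Over all H3K4me1 regions under 5000 bp the share with such a neighbour was 27.1%, so factor-free regions lay near that background. With factor peaks enriched at least 10-fold the share of factor-free regions was 11.3%. Chromosomes ranged from 21.4% on X to 27.2% on 12 (24.9% ± 1.69, SD over 20). A factor-bound neighbour on both sides was found for 1482, or 2.07%, against 2.52% of all H3K4me1 regions under 5000 bp. A further 36822 factor-free regions, 51.4%, had other H3K4me1 regions that near but no factor-bound one. The remaining 16977, 23.7%, had no H3K4me1 region within 2500 bp, against 24.8% of all regions under 5000 bp. Among the upper 50% of H3K4me1 regions by score, 42.6% of factor-free regions stood alone, with fewer regions left as neighbours. The median gap from a factor-free region to the nearest H3K4me1 region was 568 bp. At equal width it averaged 571 bp, against 461.5 bp for factor-bound regions, with a ratio above 1 on 3 of 20 chromosomes (0.846 ± 0.174, SD). The shorter gap was not general to factor-bound regions. With C/EBPα alone the gap was 605 bp, with a ratio above 1 on 12 of 20 chromosomes. With Hoxa9 alone it was 348 bp and with both factors 228 bp. The rule enters these gaps too, because a factor peak that reaches across a short gap makes the regions on each side factor-bound. Of 33024 factor peaks, 3493 touched 2 or more H3K4me1 regions. The gaps without such peaks were not tested.

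Factor-bound regions more often had a factor-bound neighbour, at 41.2% (40.5 to 41.8), and at equal width the shares were 43.4% and 24.97%. Many of those pairs shared 1 factor peak. Of the 8186 factor-bound regions with such a neighbour, 64.4% were touched by a peak that also touched another H3K4me1 region. A factor-free region cannot share a peak in this way, so the rule itself enters the difference. Of 14617 factor-bound regions that shared no factor peak with another H3K4me1 region, 19.9% (19.3 to 20.6) had a factor-bound neighbour. The 5274 regions left out all had a factor-bound neighbour, so this share had to be below 41.2%. It was not matched for width either, so no conclusion is drawn from it beside the 24.97% of factor-free regions. Standing alone was also more frequent in factor-bound regions at equal width, at 28.1% against 23.7% of factor-free ones, and higher in 15 of 19 bins. Without the width bins the classes were alike, at 23.5% of factor-bound and 23.7% of factor-free regions.

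Having a factor-bound neighbour went with almost no difference in the mark. Factor-free regions beside a factor-bound one had a median width of 664 bp and 0.0388 tags per bp. Those with other neighbours only had 674 bp and 0.0388, and those standing alone 631 bp and 0.0379. At equal width the first group was at 1.005 times the tags per bp of the other factor-free regions (SD 0.00563 over 20 chromosomes, above 1 on 16). Regions standing alone were at 0.993 times, below 1 on all 20 chromosomes (SD 0.00780), although their fold enrichment was at 1.009 times and above 1 on 16. Differences of this size are well inside the quartiles of each group.

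Wide factor-free regions had company slightly more often. Of those of 2000 bp or more, 29.4% (28.2 to 30.6) lay within 2500 bp of a factor-bound region and 16.8% stood alone. For those under 500 bp the shares were 25.1% and 24.9%. Within a pair the factor-bound region was usually the larger. The factor-free region was the narrower one in 83.0% of 17903 pairs and had fewer tags per bp in 80.9%, with medians of 664 against 1962 bp and 0.0388 against 0.0544 tags per bp. These pairs were not matched for width. In 1791 of the 17903 pairs the neighbour was of 5000 bp or more. The width limit alone made the factor-free region the narrower one in those pairs. Tags per bp were higher in wider regions, so both shares are descriptions only. The neighbour had C/EBPα alone in 72.1% of cases, Hoxa9 alone in 8.67% and both in 19.3%. Among all 21892 H3K4me1 regions touched by either factor, of any width and with or without H3K27me3, these shares were 71.5%, 8.90% and 19.6%.

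Regions with gaps of 2500 bp or less were joined into stretches. Stretches made of factor-free regions alone numbered 27023 and held 62.7% (62.3 to 63.1) of all factor-free regions. Stretches that held both factor-free and factor-bound regions numbered 9284 and contained 35.6% of the factor-free ones, with a median of 3 regions. Long stretches nearly always held a factor: 20.5% of single regions were factor-bound, 35.1% of pairs held a factor-bound region, and so did 93.0% (90.1 to 95.2) of 426 stretches of 11 or more. The share of factor-free regions among all regions moved far less, from 69.1% in single regions to 74.9% in stretches of 11 or more. Longer stretches have more chances to include a factor-bound region. In stretches with a factor-bound region 44.6% of factor-free regions stood at an end, and in stretches with a factor-free region 50.6% of factor-bound ones did.

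**Figure D5:**
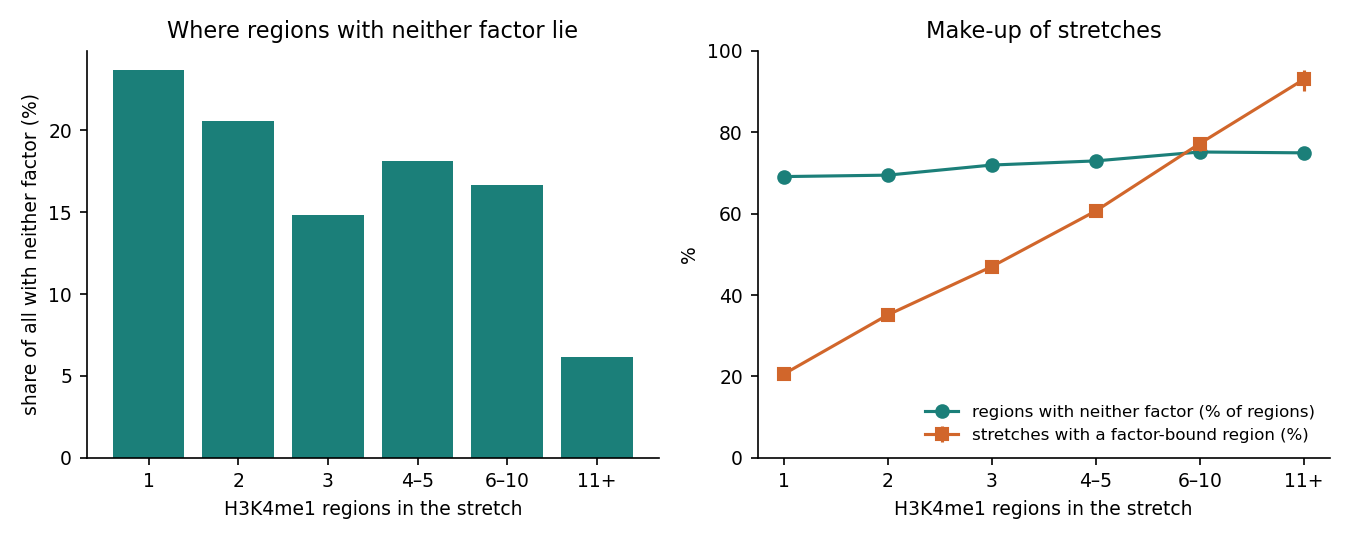
Stretches of H3K4me1 regions joined over gaps of 2500 bp or less, by the number of regions in them (x axis). Left, the percent of all factor-free regions in each size; right, the percent of regions that are factor-free (green), between 69.1% and 75.1%, and the percent of stretches with a factor-bound region (orange, exact 95% intervals), from 20.5% to 93.0%.

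The 4 stretches of factor-free regions alone that are named here were picked for having the most regions. The one with most regions, 25, lay on chromosome 4 from 88418021 to 88452872. It spanned 34852 bp, of which 67.9% was covered, with widths from 449 to 1383 bp, a median of 0.0481 tags per bp and a median fold enrichment of 6.67. Its regions came no closer than 32894 bp to a factor summit and 7501 bp to an H3K27me3 region. A stretch of 17 lay on chromosome 16 from 32056475 to 32081114, with 0.0373 tags per bp and the nearest factor summit 26814 bp away. The other 2 held 15 regions on chromosome 4 from 59540722 to 59560551 and 14 on chromosome 2 from 83561749 to 83587757. In the former a factor summit lay 886 bp from a region, and in the latter at 11206 bp.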

How the data were processed

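Lists from 4 libraries (Hoxa9, C/EBPα, H3K4me1 and H3K27me3) were used, each called by the authors in 1 library, and the input was not used here. The mouse build mm9 and the tools MACS 1.4, BWA 0.6.2 and CASAVA 1.8.2 are named in the submitters' processing notes. The sources used here give neither caller settings nor the control library. By their headers, the deposited values are tag counts per region, a score of 10 times the −log10 p-value, a linear fold enrichment ratio and a false discovery rate in percent. The deposited counts are not normalized. The H3K4me1 list held 6242014 tags, which is not the library's depth, and at least 14 per region. Regions too weak to be listed are missing, and a factor-free region may still hold a factor below the caller's threshold.

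Overlaps (1 bp or more), gaps and distances were computed with Python 3.11.15, numpy 2.4.6 and pandas 2.3.3, using 1-based coordinates, and tested on simulated data. Starts, ends and summits are those of the lists. Intervals are exact Clopper-Pearson at 95% and cover counting error only, and neighbouring regions are not independent. No p-value was computed, since regions are not replicates. Regions were named by rule: the 10 highest scores, the 5 highest fold enrichments, the 5 widest, the 5 farthest from a factor and the 4 stretches of most regions, all factor-free. Members and rules were chosen with earlier results of these data known. Genes and sequence were not analysed here, because the annotation at hand is of another build.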

Additional observations from a re-analysis of the deposited data

How the results depend on the processing

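Over 56 alternatives to 8 results, 31 stayed within the 95% exact interval (shares) or 1 SD over chromosomes (other values) and 25 moved further. Only the equal-width ratios, with 16 of these alternatives, had a direction that could reverse. The factor-bound value stayed above the factor-free one in all 16 equal-width ratios, the one that moved being fold enrichment at 1.085 when factor peaks had to be enriched at least 10-fold. With those stricter factor lists the factor-free share was 84.2%, the median width 707 bp, the tags per bp 0.0395, the distance to a factor summit 27659 bp, the share near a factor-bound region 11.3% and the share standing alone 24.0%. With the upper 50% of H3K4me1 regions by score the factor-free share was 60.6%, the width 1234 bp, the tags per bp 0.0477, and the shares near a factor-bound region and alone 23.1% and 42.6%, since fewer regions were left. With a factor summit required inside the region the factor-free share was 77.9%, the distance 7316 bp and these shares 23.1% and 23.0%. With peaks within 500 bp counted as touching they were 68.7%, 9250 bp, 23.6% and 24.6%. A neighbour distance of 1 kb gave 15.0% near a factor-bound region and 39.9% alone, and 5 kb gave 36.3% and 14.4%. Without a limit on length, a setting chosen after seeing the data, the factor-free share was 71.9% of all regions. Without chromosome X all 8 results stayed within these limits. No paired analysis was possible because each list came from 1 library. Depth limits the absence of a factor: the fewest tags in a listed peak were 17 for Hoxa9 and 15 for C/EBPα.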

Other observations

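Chromosome X carried few factor-free regions, 794, or 4.88 per Mb against an autosomal median of 29.5 and a highest value of 47.9 on chromosome 11. They were narrower there, with a median of 510 bp against 630 to 691.5 bp on the 19 autosomes, held 0.0353 tags per bp, the lowest of any chromosome, and stood alone in 37.7% of cases against at most 27.5% on an autosome. Their distance to a factor summit, a median of 8650 bp, lay within the autosomal range. They were 67.0% of the regions under 5000 bp on X, and 10.7% of those regions touched H3K27me3 against 5.27 to 9.43% on autosomes.

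Polycomb marking lay about equally near both classes: an H3K27me3 region was within 2500 bp of 4.03% (3.89 to 4.18) of factor-free and 4.25% (3.98 to 4.54) of factor-bound regions, and within 10000 bp of 13.1% and 12.7%. The H3K4me1 summit of a factor-free region showed little lean towards its nearest H3K4me1 neighbour. It lay on the side facing that neighbour in 52.2% (51.2 to 53.1) of cases where the neighbour was factor-bound and in 51.5% (51.1 to 52.0) where it was not. A single factor-free region had 0.5 or more tags per bp, on chromosome 15 from 74915712 to 74917849, where 1891 tags gave 0.884 tags per bp at a fold enrichment of only 2.06. It was named after its values were seen.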
